A study of Mus musculus with 6 samples.

Results

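Tropomyosins, calponins and the other proteins of the contractile thin filament were followed through 10 genes, namely Tpm1, Tpm2, Tpm3, Tpm4, Cnn1, Cnn2, Cnn3, Cald1, Lmod1 and Tagln, in cultured stroma of the fetal mouse kidney. They were taken by symbol from a table of 78409 genes, each symbol had 1 entry, and all 10 were among the 14834 genes with enough counts to be tested. The cells were nephrogenic stroma of CD1 mice (wild-type, embryonic day 18), sorted for PDGFRa from the nephrogenic zone of pooled kidneys and grown for 18 h in medium with fetal bovine serum. They grew on glass coverslips coated with the silicone PDMS that had been incubated for 4 h in bovine fibronectin at 500 ng/mL (low adhesion) or 50000 ng/mL (high adhesion). Cells of each of 3 litters went to both substrates, which gave 3 libraries of polyadenylated RNA per group. No group without a fibronectin coating was analysed here.

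The thin filament is an actin filament with the proteins that lie along it. Tropomyosins are coiled-coil dimers that run end to end in the groove of the filament and control which myosins and severing proteins reach it. Calponins, caldesmon and transgelin bind actin beside tropomyosin and are known as markers of smooth muscle and of contractile fibroblasts, and leiomodins nucleate new filaments. Several of these genes are textbook targets of the serum response factor SRF, whose partner MRTF is held in the cytoplasm by free actin monomers and which binds a DNA element called the CArG box.

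Of the 10 genes, 6 were higher and 1 was lower at high adhesion, and 3 did not pass. Leiomodin 1 (Lmod1) rose 1.90-fold and calponin 1 (Cnn1) 1.73-fold, from the lowest levels among the 10. Transgelin (Tagln) and calponin 3 (Cnn3), both abundant, rose 1.21-fold and 1.17-fold, while calponin 2 (Cnn2) and tropomyosin 2 (Tpm2) rose 1.09-fold each and only just passed. Caldesmon (Cald1) fell by 0.19 on the log2 scale. Tpm1, Tpm3 and Tpm4 did not pass, with log2 fold changes of 0.06, -0.01 and -0.02. A gene passed at an adjusted p under 0.05 in the quasi-likelihood test of edgeR, where litter entered the model as a block. The same test called 9.55% of all tested genes, 4.71% higher and 4.83% lower, and the median log2 fold change was 0.12 over the 10 genes and 0.00 over all tested genes.

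These calls rest on the change within each litter. Without the replicate block 0 of the 10 genes passed in edgeR or DESeq2, against 0.243% and 0.822% of all genes in these tools. At an unadjusted p under 0.05 there were also 0 of the 10 in both tools. In edgeR 1359 of the 14834 tested genes lay under that unadjusted p. DESeq2 with litter called 4 genes higher and 1 lower, leaving out Cnn2 (adjusted p = 0.219) and Tpm2 (adjusted p = 0.267), against 2.74% of all genes.

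**Figure D1:**
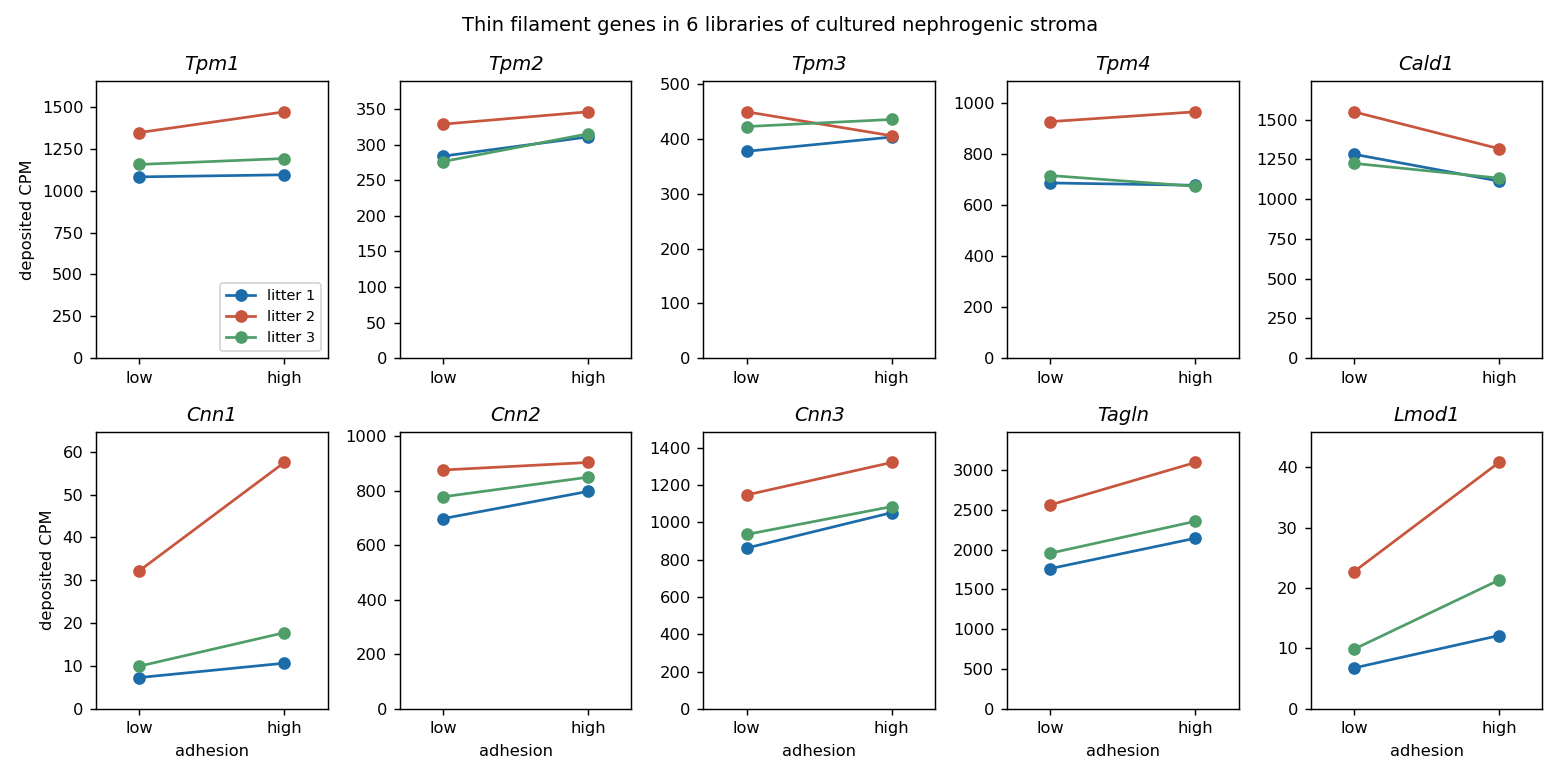
Deposited CPM (counts scaled to equal library sums, vertical axes from 0, a scale of its own in each panel) of the 10 genes at low and high adhesion, with 1 line per litter. Lines of Lmod1, Cnn1, Tagln and Cnn3 go up and those of Cald1 down in all 3 litters, and litter 2 lies above the other litters in most panels.

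Lmod1 (ENSMUSG00000048096) had the largest response. At low adhesion it stood at 6.76, 22.7 and 9.88 CPM in litters 1, 2 and 3, where CPM scale every library to the same sum of counts, and at high adhesion at 12.1, 40.8 and 21.3 CPM. Every litter was higher at high adhesion, by 1.79-fold, 1.80-fold and 2.16-fold, but the groups overlapped because litter 2 at low adhesion exceeded litters 1 and 3 at high adhesion. The log2 fold change was 0.92 (SE 0.09, edgeR over 3 litter pairs, adjusted p = 3.34e-08). The lowest of these libraries held 89 counts, for which counting alone gives an exact 95% Poisson interval of 71.5 to 109.5.

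Cnn1 (ENSMUSG00000001349), the calponin of differentiated smooth muscle, was at 7.29, 32.2 and 9.96 CPM at low adhesion and at 10.6, 57.5 and 17.8 CPM at high adhesion. Its increase was 1.46-fold in litter 1 and 1.78-fold in litters 2 and 3. Litter 2 stood far above the others on either substrate, with 4.42 times the level of litter 1 at low and 5.40 times at high adhesion, a gap larger than the adhesion response. The log2 fold change was 0.79 (SE 0.08, edgeR over 3 litter pairs, adjusted p = 2.18e-07). The lowest count was 96, with an exact 95% Poisson interval of 77.8 to 117.

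The other calponins, which are found in many cell types besides muscle, moved less. Cnn3 (ENSMUSG00000053931) had 863, 1147 and 936 CPM at low and 1052, 1322 and 1085 CPM at high adhesion, above its litter partner by 22.0%, 15.2% and 15.9%. Its log2 fold change was 0.23 (SE 0.04, edgeR over 3 litter pairs, adjusted p = 7.16e-05). Cnn2 (ENSMUSG00000004665) had 697, 875 and 777 CPM at low and 797, 903 and 849 CPM at high adhesion. Its rise was 14.3% in litter 1, 9.24% in litter 3 and 3.15% in litter 2, the litter with the highest level. The Cnn2 call (log2 fold change 0.12, SE 0.04, edgeR over 3 litter pairs, adjusted p = 0.0454) was lost without litter 1 (adjusted p = 0.291), without litter 3 (adjusted p = 0.345) and with no filter on low counts (adjusted p = 0.116).

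Tagln (ENSMUSG00000032085), which encodes the actin-binding protein SM22, was the most abundant of the 10 per length, and its response was alike in the 3 litters. It stood at 1761, 2560 and 1954 CPM at low and 2141, 3093 and 2354 CPM at high adhesion. The ratio of high to low was 1.22, 1.21 and 1.20 in litters 1, 2 and 3, although litter 2 began 1.45 times above litter 1. The log2 fold change was 0.27 (SE 0.03, edgeR over 3 litter pairs, adjusted p = 3.48e-06).

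Cald1 (ENSMUSG00000029761) was the gene that went the other way. Caldesmon links actin to myosin and to tropomyosin and inhibits the motor until it is phosphorylated. It was at 1282, 1548 and 1224 CPM at low and 1113, 1317 and 1132 CPM at high adhesion, so it changed by -13.1%, -15.0% and -7.58% in litters 1, 2 and 3. The log2 fold change was -0.19 (SE 0.04, edgeR over 3 litter pairs, adjusted p = 0.00108), and leaving out any litter kept the call, with adjusted p up to 0.0131. Litter 2 was again the highest of its group, so the litter difference in Cald1 ran in the same direction as in Tagln and Cnn3 while its adhesion response ran the opposite way.

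The tropomyosins, whose genes give many isoforms by alternative promoters and exons that gene counts cannot separate, changed little. Tpm1 (ENSMUSG00000032366) was at 1082, 1347 and 1156 CPM at low and 1095, 1471 and 1192 CPM at high adhesion. All 3 litters were higher, by 1.15%, 9.18% and 3.06%, yet the gene did not pass (edgeR adjusted p = 0.393), and the 95% interval of its fold was 0.988 to 1.10. Tpm2 (ENSMUSG00000028464), a tropomyosin typical of smooth and slow skeletal muscle, went from 284, 329 and 276 CPM to 311, 346 and 315 CPM. It was higher by 9.50%, 5.27% and 14.1%, a log2 fold change of 0.13 (SE 0.04, edgeR over 3 litter pairs, adjusted p = 0.0422). That call was lost without litter 1 (adjusted p = 0.107), without litter 3 (adjusted p = 0.458) and with no filter on low counts (adjusted p = 0.105). Tpm4 (ENSMUSG00000031799), mostly a cytoskeletal form, was at 685, 926 and 715 CPM at low and 676, 964 and 672 CPM at high adhesion. Its fold had a 95% interval of 0.933 to 1.04 and litters moved in different directions. Summed CPM of the 4 tropomyosins changed 1.02-fold, 1.04-fold and 1.02-fold in litters 1, 2 and 3, and summed CPM of the 3 calponins 1.19-fold, 1.11-fold and 1.13-fold.

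Tpm3 (ENSMUSG00000027940) needs a reservation. It was at 377, 449 and 423 CPM at low and 403, 406 and 435 CPM at high adhesion, higher by 6.89% and 3.06% in litters 1 and 3 and lower in litter 2, where it fell by 9.71%. Over the litters it did not pass (edgeR adjusted p = 0.961, 95% interval of the fold 0.937 to 1.06). The table lists a second gene named after it, Tpm3-rs7 (ENSMUSG00000058126), at 350, 255 and 304 CPM at low and 365, 239 and 305 CPM at high adhesion. The coding sequences of Tpm3 and Tpm3-rs7 match at 744 of 747 bases (99.6%) in the GENCODE M21 transcripts, so the division of reads between them is uncertain. Litter 2 was the lowest for Tpm3-rs7 on both substrates. Together the pair gave 728, 705 and 726 CPM at low and 768, 644 and 741 CPM at high adhesion. Tpm3-rs7 was chosen after its values were seen. The coding sequences of the tropomyosin genes matched one another at 65.6% to 80.5% of bases in the most alike isoforms, and those of the calponins at 63.2% to 65.2%. All 10 genes had fractional counts in at least 1 library, from 1 of 6 for Cnn1 and Lmod1 to 5 of 6 for Tpm4. Fractional counts arise where a read is divided among several features.

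**Figure D2:**
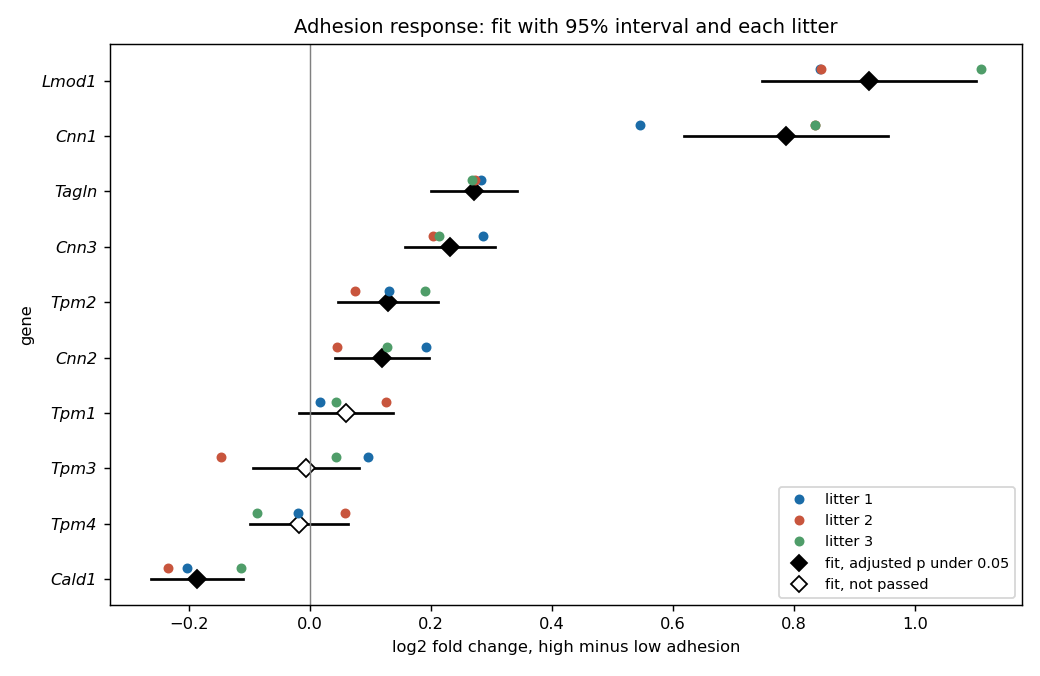
Log2 fold change (high minus low adhesion) of the 10 genes from the edgeR fit (diamonds, filled where the adjusted p was under 0.05) with 95% intervals (bars), and the ratio in each litter (dots). Lmod1 and Cnn1 stand apart at 0.92 and 0.79, Cald1 is the only filled diamond below 0, and the dots of Tpm3 and Tpm4 lie on both sides of 0.

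Most of these genes also differed from litter to litter. Of the 10, 9 differed between litters in an F-test of the same model (edgeR adjusted p from 1.45e-15 for Cnn1 to 0.0039 for Tpm2), against 17.9% of all tested genes and 22.5% of genes of at least 5 CPM. The exception was Tpm3 (adjusted p = 0.073). Both libraries of a litter came from cells of that litter, so litter and the handling of its cells cannot be told apart here. In 9 of 10 both litter 2 libraries stood above the other 4, which held for 11.8% of all genes, and Tpm3 was again the exception. At low adhesion litter 2 exceeded the mean of litters 1 and 3 by 3.74 times in Cnn1 and 2.73 times in Lmod1, but by 1.12 to 1.38 times in the other 8. The high and low groups overlapped in all 10 genes. Over all genes 7.82% lay wholly higher and 7.6% wholly lower at high adhesion, so 0 of 10 is no result about the set.

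Some smooth muscle genes outside the set were also highest in litter 2, and others were not. Myh11, the smooth muscle myosin heavy chain, was at 0.912, 4.86 and 0.754 CPM at low and 1.10, 10.6 and 1.33 CPM at high adhesion in litters 1, 2 and 3. Actg2, the enteric smooth muscle actin, was at 4.48, 39.8 and 6.64 CPM and at 5.48, 64.0 and 9.03 CPM. The 7 markers of pericytes and vascular smooth muscle summed to 267, 322 and 266 CPM at low and 309, 353 and 277 CPM at high adhesion. Litter 2 had the highest sum on either substrate, mostly through Mcam (155, 233 and 183 CPM at low and 182, 252 and 188 CPM at high adhesion). Des was instead highest in litter 1, at 66.4, 40.2 and 37.6 CPM and at 89.1, 52.7 and 56.1 CPM. Notch3 was lowest in litter 2 on both substrates, and Cspg4 at low adhesion. Of the 7, Myh11 and Des were higher and Rgs5 and Cspg4 lower at high adhesion. Their part in the results was not tested. In bulk RNA a change in the share of a cell type cannot be told apart from a change of RNA per cell.

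The label of the cells was checked on marker lists. Each of the 8 stromal markers was found, with Pdgfra at 26.6 to 33.6 CPM at low and 16.9 to 26.5 CPM at high adhesion and Foxd1 at 182 to 216 and 157 to 176 CPM. Of these 8 genes 6 were lower and 1 was higher at high adhesion, while their sum was 5262 to 6078 and 5232 to 6050 CPM. That sum was mostly Vim, the gene that was higher, at 3053 to 3600 and 3301 to 4052 CPM, and Col1a1, which was lower, at 1521 to 1649 and 1333 to 1414 CPM. The 10 markers of striated muscle summed to 4.70 to 6.84 CPM at low and 5.40 to 6.96 CPM at high adhesion, with none of 3 tested past the threshold (also none at an unadjusted p under 0.05). The 5 epithelial markers summed to 220 to 516 CPM at low and 357 to 769 CPM at high adhesion, mostly Krt18, with Krt8 and Krt18 higher. Epcam (mean 5.91 and 7.45 CPM at low and high adhesion), Cdh1 (1.01 and 1.29) and Cdh16 (4.80 and 5.29) did not pass. Litter 2 had the lowest epithelial sum on either substrate. The 5 endothelial markers summed to 41.2 to 52.1 and 36.0 to 44.5 CPM (1 of 5 lower), the 5 macrophage markers to 21.1 to 41.7 and 21.5 to 49.6 CPM (1 of 5 higher), the 4 nephron progenitor markers to 50.6 to 72.1 and 53.7 to 77.3 CPM (1 of 4 higher) and the 3 erythroid markers to 128 to 205 and 106 to 215 CPM (0 of 2 tested; also 0 at an unadjusted p under 0.05). No marker was at 0 in all 6 libraries. The libraries held 12596249 to 13508257 counts, so 1 count was worth 0.074 to 0.0794 CPM.

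Levels of different genes were compared per length, as CPM divided by the median length in kilobases of the gene's protein-coding transcripts, which assumes even coverage along the transcript. On this scale Tagln was first, with 1104 to 1939 CPM per kb over the 6 libraries, and did not overlap with Tpm1 (659 to 896). The ranges of neighbours overlapped from Tpm1 through Cnn3 (524 to 803), Cnn2 (412 to 533) and Tpm4 (316 to 453) to Cald1 (273 to 380 CPM per kb). Tpm3 (172 to 205) and Tpm2 (132 to 165 CPM per kb) came next without overlap, and Cnn1 (4.05 to 31.9) and Lmod1 (1.71 to 10.3 CPM per kb) closed the order and overlapped. The genes of largest fold change were thus those of lowest level. The place of Tpm3 depends on its near-identical copy: summed with Tpm3-rs7 and divided by the length of Tpm3, the pair stood at 294 to 351 CPM per kb and overlapped Cald1 and Tpm4.

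The make-up of each family was followed as the share of each gene. Tpm1 supplied 51.2% ± 0.44 of tropomyosin CPM per kb at low and 51.8% ± 1.09 at high adhesion (SD, n = 3 each), Tpm4 25.5% ± 1.22 and 24.5% ± 2.00, Tpm3 13.4% ± 0.72 and 13.1% ± 1.87, and Tpm2 9.94% ± 0.48 and 10.6% ± 0.79. Tpm2 gained share in each litter, by 0.75, 0.02 and 1.15 percentage points, and Tpm4 lost share in each, a change of -0.86, -0.23 and -1.89 points. Among calponins Cnn3 held 55.8% ± 0.78 at low and 57.4% ± 1.19 at high adhesion (SD, n = 3 each), and Cnn2 43.4% ± 1.28 and 41.3% ± 2.06. Cnn3 gained 1.54, 2.10 and 1.28 points and Cnn2 changed by -1.64, -2.98 and -1.59 points in litters 1, 2 and 3. Cnn1 made up 0.43%, 1.45% and 0.53% at low and 0.53%, 2.33% and 0.84% at high adhesion. With Tpm3-rs7 added, the share of Tpm3 became 21.2% ± 2.32 at low and 20.7% ± 3.89 at high adhesion (SD, n = 3 each), and that of Tpm1 44.9% to 49.5% over the libraries. These shares are a description and were not tested.

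**Figure D3:**
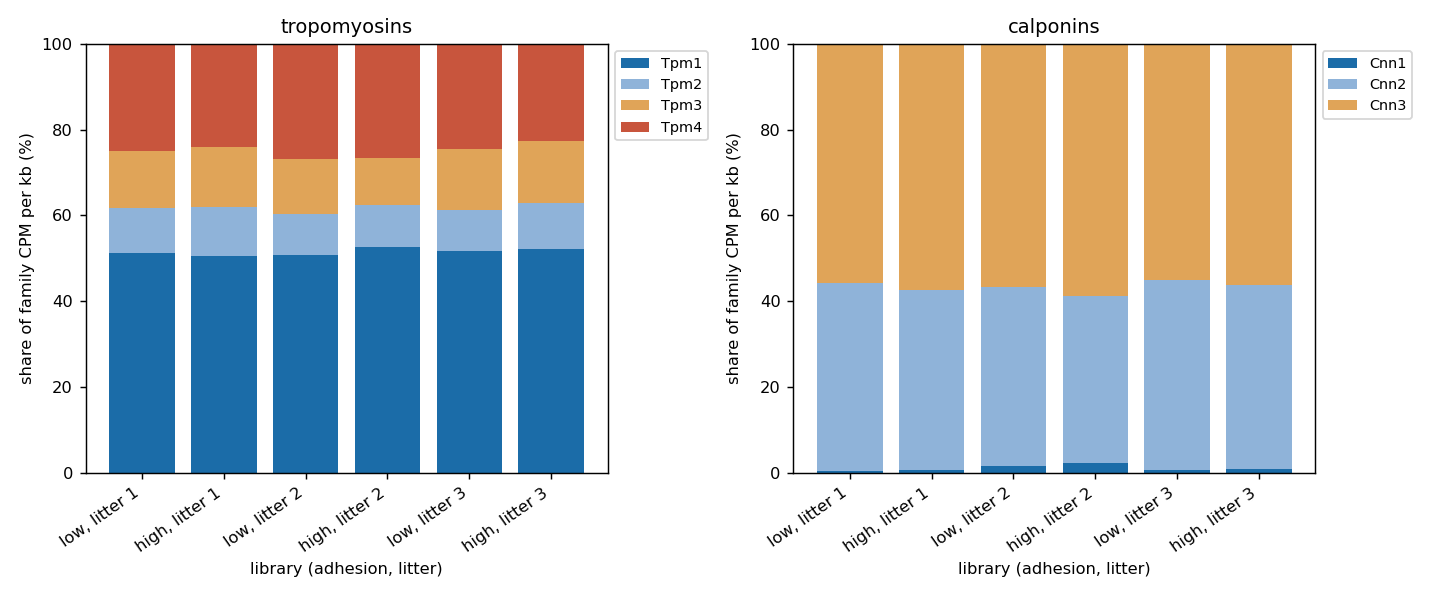
Share (%) of each gene in the summed CPM per kb of the tropomyosins (left) and of the calponins (right), with 1 bar per library and the litters side by side. Tpm1 takes between 50.6% and 52.7% of every tropomyosin bar, where Tpm3-rs7 is not counted, and the thin bottom band of Cnn1 is widest in litter 2.

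**Figure D4:**
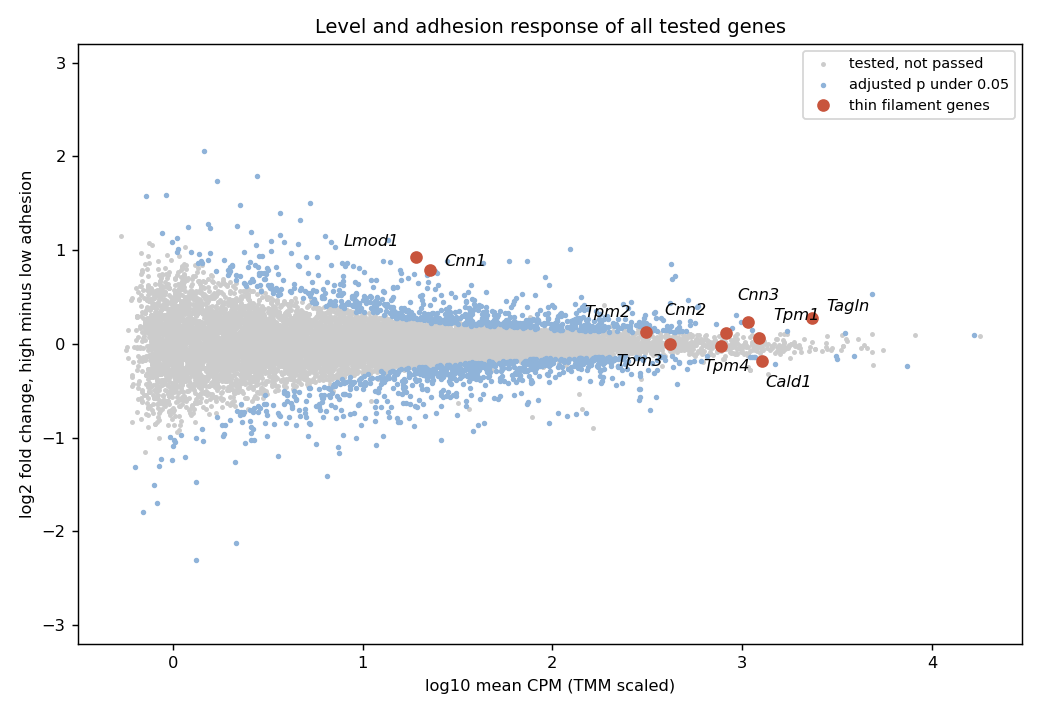
Log2 fold change (high minus low adhesion) of all 14834 tested genes against the log10 of their mean CPM, with genes of adjusted p under 0.05 in blue and the 10 thin filament genes in red. Lmod1 and Cnn1 sit at the upper edge of the cloud, and the other 8, at far higher levels, lie close to 0.

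The members' promoters were searched for 3 short elements. RefSeq promoter entries (build GRCm38.p6, 250 bases before to 50 after the start) existed for 9 of the 10 genes, 11 entries in all. Tagln had none. The CArG box, bound by SRF, was searched only as the exact string CCWWWWWWGG, where W is A or T. This string occurred in 1 of the 11 entries, that of Cnn2, 56 bases before the start, and in 1.63% of all 32851 promoters. Strings with a mismatch were not searched, so an entry without a match can still hold a looser form. The hexamer CATTCC on either strand, the core of the element bound by TEAD factors, occurred in 3 entries, those of Tpm1, Lmod1 and 1 of the 2 of Cald1, and in 14.7% of all promoters. The hexamer TATAAA on either strand occurred in 1 entry, the other one of Cald1, and in 13.6% of all promoters. The elements did not overlap. The 250 bases before the start are shown 5′ to 3′ in the direction of transcription, with any element in capitals. Cnn2 is shown as the carrier of the CArG box (chr10:79988350-79988599, plus strand). Lmod1 (chr1:135324563-135324812, plus strand), which passed the adhesion test, and Tpm1 (chr9:67049214-67049463, minus strand), which did not, are shown as carriers of CATTCC. Cnn1 (chr9:22099003-22099252, plus strand) passed and holds none of the elements.
Cnn2: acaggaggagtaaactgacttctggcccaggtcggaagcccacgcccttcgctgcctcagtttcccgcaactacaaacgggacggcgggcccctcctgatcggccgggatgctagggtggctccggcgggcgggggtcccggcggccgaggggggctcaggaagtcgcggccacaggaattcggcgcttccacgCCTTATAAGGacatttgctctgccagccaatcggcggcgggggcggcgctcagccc
Lmod1: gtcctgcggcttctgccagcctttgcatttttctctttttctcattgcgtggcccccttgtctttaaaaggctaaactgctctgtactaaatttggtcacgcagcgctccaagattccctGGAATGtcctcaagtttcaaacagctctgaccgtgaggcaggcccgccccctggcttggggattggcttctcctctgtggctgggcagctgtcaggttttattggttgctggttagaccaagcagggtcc
Tpm1: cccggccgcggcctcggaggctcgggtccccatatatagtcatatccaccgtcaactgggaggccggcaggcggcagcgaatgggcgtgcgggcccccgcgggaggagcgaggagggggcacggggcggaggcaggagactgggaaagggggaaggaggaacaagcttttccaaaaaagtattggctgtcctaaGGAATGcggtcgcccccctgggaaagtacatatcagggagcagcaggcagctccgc
Cnn1: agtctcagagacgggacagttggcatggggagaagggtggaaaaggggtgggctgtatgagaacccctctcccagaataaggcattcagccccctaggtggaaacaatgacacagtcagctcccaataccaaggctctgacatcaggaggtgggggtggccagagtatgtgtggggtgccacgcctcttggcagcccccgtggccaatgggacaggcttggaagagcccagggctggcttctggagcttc
Cnn2, the carrier of the exact CArG box, had a log2 fold change of 0.12. Lmod1 and Tpm1 both hold CATTCC, at 130 and 56 bases before the start, and had log2 fold changes of 0.92 and 0.06. A match is a string of letters in this window and no measure of binding. A part of these elements in the adhesion response was not tested.

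Relatives and partners of the thin filament were taken from 3 lists. Of 19 relatives (transgelins, leiomodins, tropomodulins, troponins and nebulins), 11 had enough counts to be tested, 1 rose and 10 did not pass. Over all tested genes 4.71% rose and 4.83% fell, and a count of 1 is no result about the list. The gene that rose was Tagln2, the transgelin of nonmuscle cells, at 1643 ± 199 and 1802 ± 133 CPM (SD, n = 3 each, log2 fold change 0.13, edgeR adjusted p = 0.0199). It was not called without litter 1, without litter 3 or in DESeq2. Its coding sequence matches that of Tagln at 69.1% of bases. The median log2 fold change of the 11 was 0.13. Apart from Tagln2 and Tmod3, the 11 had group means of only 1.21 to 8.84 CPM and SE of 0.12 to 0.34. Log2 fold changes as small as those of Cnn2 and Tpm2 could not pass there.

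Of 23 actomyosin partners 8 rose, 1 fell and 14 did not pass, beside 4.71% and 4.83% of all tested genes, with a median of 0.10. DESeq2 with litter called 5 higher, beside 1.4% of all genes. Acta2, the smooth muscle actin that these proteins bind, was at 2963, 5382 and 3462 CPM at low and 4599, 7339 and 4988 CPM at high adhesion (log2 fold change 0.53, SE 0.03, edgeR adjusted p = 5.88e-11). Myl9, a regulatory light chain of smooth muscle and nonmuscle myosin, rose 1.26-fold (edgeR adjusted p = 3.32e-06) and Actg2 1.52-fold (edgeR adjusted p = 3.65e-05). The gene that fell was Myh10, a nonmuscle myosin heavy chain, with a log2 fold change of -0.43 (edgeR adjusted p = 2.47e-08), from 518 ± 20.2 to 384 ± 17.1 CPM (SD, n = 3 each). Its groups did not overlap.

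Among 18 SRF and MRTF factors and other targets 5 rose, 1 fell and 12 did not pass, beside 4.71% and 4.83% of all tested genes, with a median of 0.08. The count of 5 fell to 2 in DESeq2 with litter, where 1.4% of all genes were called higher. It fell to 3 in edgeR without litter 3, where 2.84% of all genes were called higher. The genes for SRF and for MRTF-A and MRTF-B did not pass, with log2 fold changes of 0.07, 0.12 and 0.06. Myocd, a further factor of the list, did not pass either, with a log2 fold change of -0.18. Fhl1, a LIM-domain protein of muscle, rose 1.62-fold (edgeR adjusted p = 3.31e-12), Zyx, which encodes the focal adhesion protein zyxin, 1.14-fold (edgeR adjusted p = 0.00139) and cardiac actin Actc1 2.35-fold at 0.304 to 3.65 CPM (edgeR adjusted p = 0.00172). Csrp2, another LIM-domain gene, fell, with a log2 fold change of -0.35 (edgeR adjusted p = 3.34e-06).

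**Figure D5:**
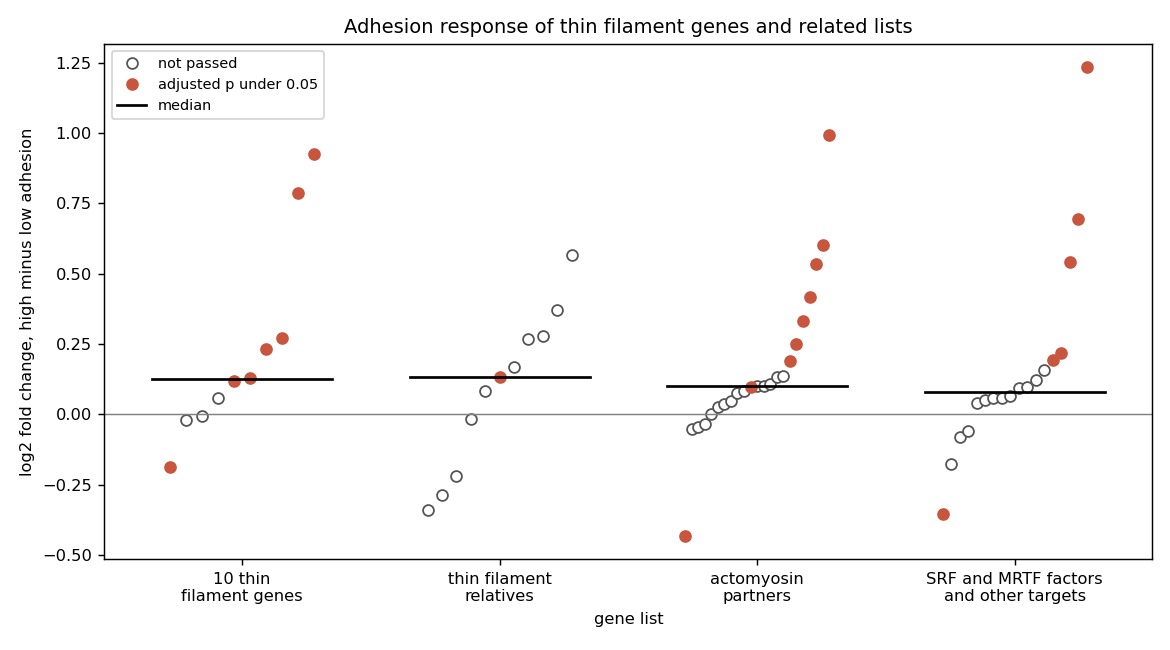
Log2 fold change (high minus low adhesion) of each tested gene of the thin filament set and of 3 related lists, sorted within a list, with filled dots at an adjusted p under 0.05 and a bar at the median. Medians run from 0.08 for the SRF and MRTF list to 0.13 for the relatives, and the filled dots below 0 are Cald1, Myh10 and Csrp2.

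The genes most like Lmod1 and Tagln across the 6 libraries were sought among 10192 others of at least 5 CPM by Pearson's r of log2 CPM. For Lmod1 they were Dag1, which encodes dystroglycan (r = 0.994), Nipal1 (r = 0.994) and the protease gene Adam9 (r = 0.991). For Tagln they were Picalm, of clathrin-mediated endocytosis (r = 1.00), Nipal1 (r = 0.996) and Gtpbp2 (r = 0.996). Picalm ran from 360, 439 and 382 CPM at low to 400, 483 and 420 CPM at high adhesion, the same order of libraries as Tagln over a narrower range. These values describe 6 libraries that share litters, and the highest of so many r are high by selection.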

How the data were processed

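Per the submitters' processing notes, tools for the genome build GRCm39 included STAR 2.7.11, Subread 2.1.1 with featureCounts, fastp 0.24.0 and SAMtools 1.22.1, with FastQC 0.12.1 and MultiQC 1.32 for reports. The sources used here do not give the annotation release, the strand setting or the handling of reads with several matches. The authors deposited estimated counts per gene, partly fractional and not scaled. The authors also deposited CPM, which are the counts scaled to the same column total, and these are the CPM printed.

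Counts were rounded and fitted with edgeR 4.0.16 in R 4.3.3, with filterByExpr, TMM scaling (factors 0.988 to 1.01), a robust quasi-likelihood model that tests adhesion beside a block for litter, two-sided, and Benjamini-Hochberg adjustment over 14834 genes with a threshold of 0.05. Litter was tested in the same fit. Log2 fold changes are high minus low, and their standard errors (SE) follow from the F statistic. The series' design text states the litter matching, and deviations from the group mean correlated at 0.56, 0.56 and 0.35 across genes within litters 1, 2 and 3 (-0.47 to -0.09 between litters). Deviations cancel within a group, so positive correlations within litters make those between litters negative on balance. Alternatives were DESeq2 1.42.0, limma-voom (limma 3.58.1), other scalings and filters, no replicate block, and each litter left out. The methods were also run on simulated data, and the outcome is not reported here.

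The members and lists were chosen with earlier results of these data known. A further list in the planned design is not reported here. Named genes are the members, up to 4 called genes of lowest adjusted p per list, Pdgfra, Foxd1 and Acta2, and the 3 genes of highest r with the called member of largest change and with the member of highest mean CPM. Myh11, Tpm3-rs7 and its sum with Tpm3, the marker genes named, the SRF and MRTF genes and Myocd were added after their values were seen. Transcript lengths and coding sequences came from GENCODE M21 (GRCm38) by gene ID or symbol, and no coordinates were moved between builds.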

Additional observations from a re-analysis of the deposited data

How the results depend on the processing

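Cnn1, Cnn3, Cald1, Lmod1 and Tagln kept their call and direction in every alternative that held litter in the model: DESeq2, limma-voom, the other scalings and filters, and each litter left out. Tpm2 and Cnn2 kept their direction, with log2 fold changes of 0.10 to 0.15 and 0.09 to 0.15 over all alternatives, but not their call. Tpm3 and Tpm4, which did not pass, changed sign with a litter left out, with log2 fold changes of -0.047 to 0.055 for Tpm3 (above 0 without litter 2) and of -0.068 to 0.019 for Tpm4 (above 0 without litter 3). Without the replicate block, in edgeR, 36 genes passed in place of 1416, with 0 of the 10 genes higher and 0 lower (0 at an unadjusted p under 0.05). The lists then had 0 relatives, 0 actomyosin partners and 0 SRF and MRTF genes higher, and 1 actomyosin partner and 0 SRF and MRTF genes lower. Unadjusted p under 0.05 were held there by 0, 2 and 3 of the 11, 23 and 18 tested genes of the 3 lists. Over all 14834 tested genes 1359 held one, and these counts are no result about the lists. DESeq2 with no replicate block, chosen after seeing the data, called 122 genes, of the members 0 higher and 0 lower. Of the lists it called 0 relatives, 0 actomyosin partners and 1 SRF and MRTF gene higher. Lower were 1 actomyosin partner and 0 SRF and MRTF genes. Unadjusted p under 0.05 were found in 0, 2 and 4 genes of the lists. The number over all genes was not counted for this setting.

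DESeq2 with litter called 406 genes, 207 of them higher, with 0 relatives, 5 actomyosin partners and 2 SRF and MRTF genes higher. With a litter left out, 908 to 1553 genes passed, 4 to 6 of the members were higher and 1 lower, and the lists had 0 to 1 relatives, 6 to 7 actomyosin partners and 3 to 6 SRF and MRTF genes higher. The count of 908 was without litter 3. Leaving out a single library removes its litter from the paired fit, so it was not run separately. Without division by length Tpm1 made up 44.6% of tropomyosin CPM at low adhesion. The cause of these shifts was not tested. Depth limits Lmod1 and Cnn1, at 89 and 96 counts in the lowest library, more than the other 8 genes.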
